A study of Mus musculus
Mus spretus with 18 samples.

Results

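Lung was compared with the other 6 tissues of the series, at the level of genes and of single exons. All animals and cells were F1 hybrids of a C57BL/6J mother and a SPRET/EiJ father, so every tissue carried the same pair of genomes. The 2 lung libraries were set against 12 libraries, 2 each of cerebral cortex, heart, kidney, spleen, liver and embryonic stem cells (ESC), out of 18 libraries in the series; the other 4, from fibroblasts treated with a splicing inhibitor or its solvent, were not used. The organs were taken from female mice aged 8 weeks, and the 2 libraries of an organ were biological replicates from 2 animals. All 6 organs came from the same pair of animals, but no source used here says which animal a replicate number marks. The ESC libraries came from 2 independent clones grown with 2i and LIF, and the liver data came from an earlier study, with other strain names (C57BL/7J and C57BL/8J) in the labels of the crosses. The libraries of spleen, lung and ESC were read at one length, while those of cortex, heart and kidney were longer and were trimmed. With 2 libraries in a tissue, p-values rest on a spread that all 7 tissues share.

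The lung brings air and blood together across a thin barrier. Flat alveolar type 1 cells line most of the air sacs, alveolar type 2 cells make the lipid and protein film called surfactant that lowers surface tension, and club and ciliated cells line the airways and keep them clean. A dense bed of capillaries, fibroblasts that lay down elastic fibres, and macrophages that live in the air space complete the organ. Splicing adds a further layer, since a cassette exon can be kept in or left out of the mRNA. It is measured here as percent spliced in (PSI), the share of the 2 forms that includes the exon, on a scale from 0 to 1. Muscle, brain and epithelium are each known for splicing factors of their own, such as Rbfox, Nova and Esrp proteins.

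Junction reads summed over all exon events came to 76239886 and 67823397 in the lung libraries and ranged from 46558287 to 129496306 over the 14 libraries. The lung replicates lay close together, with a median absolute difference of 0.0938 on the log2 scale of expression and of 0.00957 in PSI. The corresponding values in the other tissues ran from 0.0868 to 0.408 and from 0.00777 to 0.0159. The highest of each belonged to ESC, whose clones differed by a PSI of 0.1 or more in 11.02% of events, against 4.17% for the lung libraries. Scgb1a1 was the gene with the most mRNA in both lung libraries, and the 10 most abundant genes of lung took 24.5% and 22.6% of its transcripts.

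Of 19678 autosomal genes with an expression of at least 1 TPM, a transcript share scaled by gene length, in both libraries of some tissue, 5261 (26.7%) were higher in lung than the mean of the other 6 tissues and 2811 (14.3%) were lower (limma on log2(TPM + 0.1), adjusted p under 0.05 and a log2 difference of at least 1). Lung differed from each of the other 6 tissues on its own, by the same limits and in the same direction, for far fewer genes. These genes set apart were 950 (4.83%) on the higher side and 18 (0.0915%) on the lower side. The rule favours the higher side, since a gene could enter the test through lung alone. A gene set apart lower had to be expressed above lung in all 6 other tissues. The gap between these counts therefore cannot be read as a result about lung alone. Of the 950, 844 were protein-coding and 698 reached a mean of 10 TPM in lung. The tissue nearest to lung was cortex for 245 of them, spleen for 197, heart for 191, kidney for 161, ESC for 130 and liver for 26. The median difference over all genes was 0.20 on the log2 scale, and it became -0.14 when the libraries were rescaled by the median of their ratios, so the split of the calls depends on the scale: 65.2% of them were higher in lung as deposited, and 53.7% (4229 higher, 3649 lower) after rescaling.

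Surfactant and the cells that make it headed the list. Sftpc, a small hydrophobic surfactant protein, was measured at 31633 and 33029.8 TPM in the lung libraries, while the 12 other libraries lay between 0.0133 and 20.4 TPM, with a median of 0.361 TPM, so that the groups did not come near each other. Its log2 difference from the mean of the others was 15.58 ± 0.72 (SE, n = 2 lung libraries against 6 tissues of 2, adjusted p = 5.52e-08, limma; the tool, the scale and the error are the same below). Sftpb, which with Sftpc spreads the film, stood at 4339 and 4456 TPM, against a median of 0.0522 TPM elsewhere. Sftpa1 (2445 and 2983 TPM) and Sftpd (969 and 1239 TPM) encode collectins, which bind sugars on microbes. Cxcl15, a chemokine known from lung epithelium, was at 2616 and 2998 TPM and at most at 1.90 TPM in any other library.

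Of the 16 listed genes of alveolar type 2 cells, all tested, 15 were called higher, with a median log2 difference of 6.58, and 9 were set apart from every tissue. Over all genes tested, 26.7% were called higher, 14.3% lower and 4.83% set apart higher. These shares are the background for this list and each list below, and no list was tested as a set. Lamp3, a membrane protein of the lamellar bodies in which surfactant is stored, was measured at 200.3 and 242 TPM against a median of 0.0108 TPM. Slc34a2, a phosphate transporter, was at 691 and 887 TPM, and Lpcat1, an enzyme that makes the main surfactant lipid, at 239 and 268 TPM; both were set apart. Genes with a second site of expression were not. Napsa, a protease that trims surfactant protein B, was at 232 and 260.4 TPM in lung but at 7821 and 7160.3 TPM in kidney. The lipid pump Abca3 was at 147.7 and 162 TPM in lung and at 174 and 174 TPM in kidney. Fasn, the fatty acid synthase, was the 1 gene not called, with 106 and 132 TPM in lung, 207 and 188 TPM in kidney and a log2 difference of 0.14 ± 0.26 (adjusted p = 0.644).

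**Figure D1:**
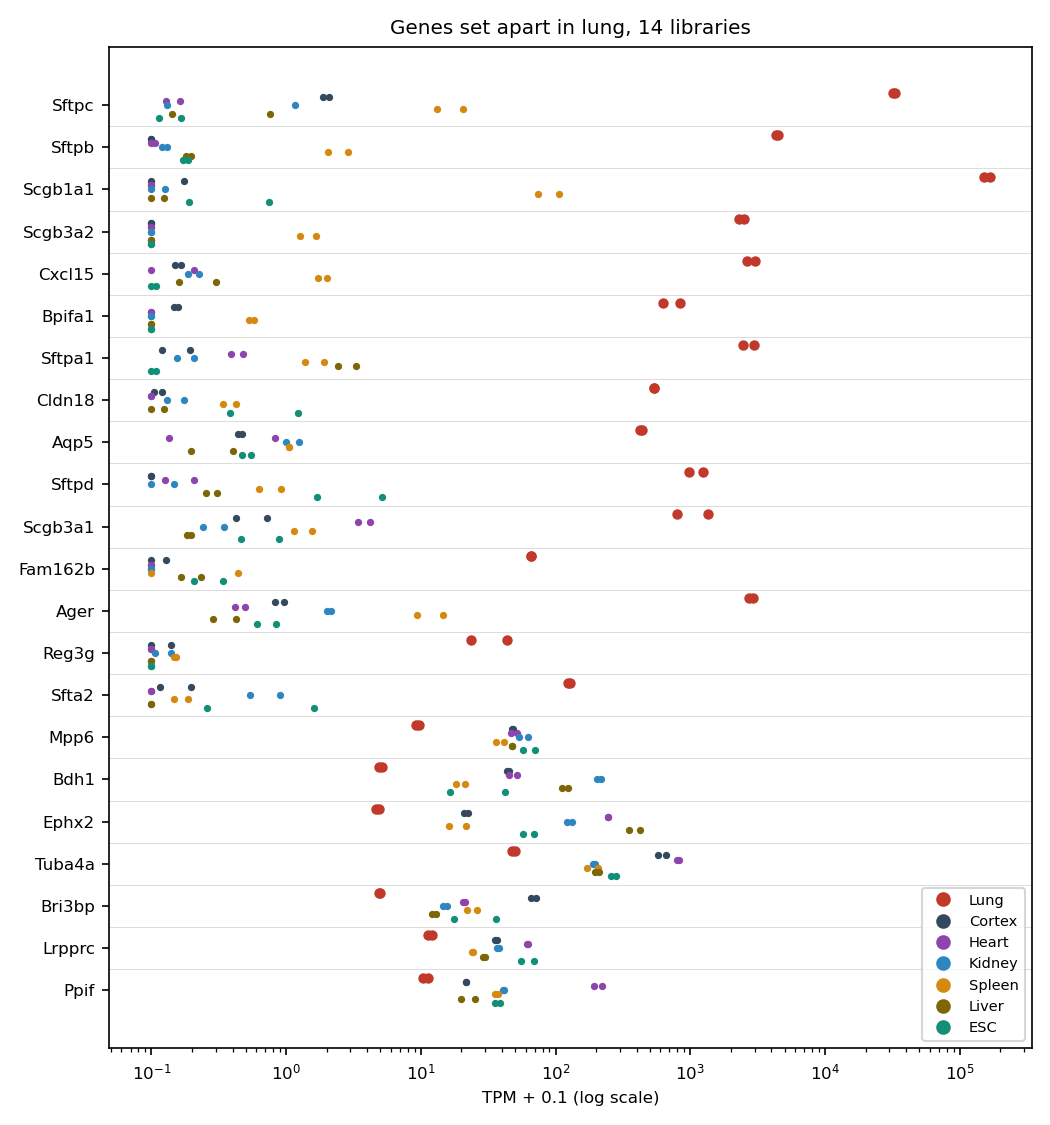
Expression of the 15 genes set apart higher and the 7 set apart lower in lung that the naming rule selected, as TPM + 0.1 on a log axis, with 1 point per library and the tissues in separate colours. The 2 lung libraries lie above every other library for the first 15 genes, from Sftpc (31633 and 33029.8 TPM) to Sfta2 (123 and 128 TPM), and below every other library for the last 7.

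Genes of alveolar type 1 cells were also high. All 15 listed genes were called higher, with a median log2 difference of 5.25, and 10 were set apart. Ager, the receptor RAGE on the basal face of these cells, was measured at 2939 and 2720.0 TPM, with the other libraries between 0.188 and 14.5 TPM, with a median of 0.736 TPM, and a log2 difference of 11.25 ± 0.21 (adjusted p = 3.42e-10). Aqp5, a water channel, was at 421 and 439.9 TPM and did not exceed 1.15 TPM in another library. Hopx (939 and 956 TPM), a small homeodomain protein, and Clic5 (331 and 339 TPM) stood above heart, the nearest tissue, at 386 and 369.9 TPM and 151 and 157 TPM. The basement membrane chains Col4a3 and Col4a4, shared with the filter of the kidney, were called higher but were not set apart. Col4a3 was at 46.2 and 50.5 TPM in lung and 134 and 137 TPM in kidney. Other genes of the naming rule were high in both lung libraries and near 0 elsewhere. Cldn18, a tight junction claudin, was at 539 and 539 TPM and Sfta2 at 123 and 128 TPM. Fam162b was measured at 65.7 and 65.7 TPM, with at most 0.337 TPM in another library.

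Airway secretory genes had the largest differences of all lists. Scgb1a1, the secretoglobin of club cells, was measured at 167577 and 150414 TPM in lung and at most at 106 TPM in another library, a log2 difference of 18.53 ± 0.41 (adjusted p = 6.92e-10). All 14 tested genes of this list were called higher, with a median log2 difference of 8.57, and 11 were set apart. Scgb3a2 was at 2489 and 2309 TPM and Scgb3a1 at 798 and 1361 TPM, both secretoglobins as well. Bpifa1, a secreted protein of the airway surface, was at 630.2 and 835 TPM. The antibacterial lectin Reg3g was far lower, at 23.5 and 43.5 TPM, yet its highest value elsewhere was 0.0510 TPM. Cyp2f2, a cytochrome P450 typical of club cells, was at 2815 and 2600.2 TPM in lung and at 1394 and 1148 TPM in liver, and it was not set apart.

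Low levels of the 15 named genes were also measured in spleen. The spleen mean lay between 0.0518% (Sftpc) and 0.0626% (Cxcl15) of the lung mean for 10 of them, and this grouping was made after the values were seen. It was 0.115% for Scgb3a1, 0.146% for Reg3g, 0.222% for Aqp5, 0.256% for Fam162b and 0.420% for Ager. In kidney the share was 0.498% for Sfta2 and 0.238% for Aqp5, both above their shares in spleen, and at most 0.0696% for the other 13. The origin of these transcripts was not tested. The 15 named genes were set apart with spleen included. Without the spleen libraries 1799 genes were set apart higher, against 950 with them. Fewer tissues have to differ there, and leaving out any other tissue gave from 1010 (liver) to 1322 (cortex).

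Ciliated cells were represented by 15 tested genes, and all 15 were called higher, with a median log2 difference of 5.50; 13 were set apart. Foxj1, the transcription factor that switches on motile cilia, was measured at 130.1 and 145 TPM, with cortex, the nearest tissue, at 11.01 and 10.9 TPM. Dynlrb2, a dynein light chain, was at 184 and 178 TPM, and Tppp3, a tubulin-binding protein, at 650.1 and 546 TPM. Sec14l3, a lipid-binding protein known from airway epithelium, reached 1199.7 and 1205 TPM. The heavy chain Dnah9 was higher in ESC (10.8 and 13.7 TPM) than in lung (5.40 and 4.95 TPM), and Ccdc39, a ruler of the axoneme, was at 13.98 and 12.8 TPM in cortex and 10.1 and 10.7 TPM in lung. Cilia genes thus had cortex or ESC as their nearest tissue, apart from Sec14l3, whose nearest tissue was kidney.

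Genes of the lung vessels were high as well. All 23 listed endothelial genes were called higher, with a median log2 difference of 4.90, and 19 were set apart. Cldn5, the claudin of endothelial junctions, was measured at 823 and 797 TPM, with cortex next at 70.5 and 73.6 TPM. Cdh5, the cadherin of endothelial junctions, was at 771 and 841 TPM and heart next at 198 and 180.3 TPM. Tmem100 was at 611 and 684 TPM against a median of 2.84 TPM, and Ace, the enzyme that makes angiotensin II, at 699 and 771 TPM against 12.7 TPM. Calcrl, the receptor of adrenomedullin, was at 207 and 265 TPM, with its nearest tissue at 14.4 and 13.4 TPM. The 4 genes that were not set apart were Ednrb, Car4, Gpihbp1 and Nos3. Nos3, the endothelial nitric oxide synthase, was lower in lung (20.2 and 18.5 TPM) than in heart (47.2 and 41.3 TPM). In whole tissue, more cells of a type and more RNA per cell cannot be told apart, which holds for each cell type named here.

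Lung mesenchyme had 17 tested genes, and all 17 were called higher, with a median log2 difference of 5.44; 13 were set apart. Tbx4, a transcription factor of lung and limb mesenchyme, was measured at 109 and 118 TPM and was at most at 1.77 TPM elsewhere. Foxf1, a forkhead factor of the mesenchyme and its vessels, was at 275 and 251 TPM, with spleen next at 5.77 and 2.81 TPM. Tcf21, at 252 and 286 TPM, had a closer neighbour in spleen, at 112 and 97.1 TPM. Inmt, a methyltransferase, was at 2188 and 2042 TPM, and Mfap4, a protein of elastic microfibrils, at 936 and 1091 TPM. Tbx5 was shared with heart, at 54.3 and 57.2 TPM in lung and 43.5 and 37.5 TPM in heart.

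Elastic fibre and smooth muscle genes were called higher in 14 of 14 cases, with a median log2 difference of 3.77, and 4 of them were set apart: Eln, Ltbp2, Loxl1 and Cnn1. Over all genes tested, 26.7% were called higher and 4.83% set apart higher. Eln, which encodes elastin, was measured at 448 and 647 TPM in lung, 89.8 and 94.01 TPM in spleen and at a median of 10.6 TPM. Loxl1, an enzyme that crosslinks elastin, was at 179 and 179 TPM, with heart next at 40.2 and 42.2 TPM. The contractile genes overlapped with spleen. Tagln was at 395 and 402 TPM in lung and 530.2 and 398 TPM in spleen, and Acta2 at 476 and 446 TPM and 438 and 286 TPM.

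**Figure D2:**
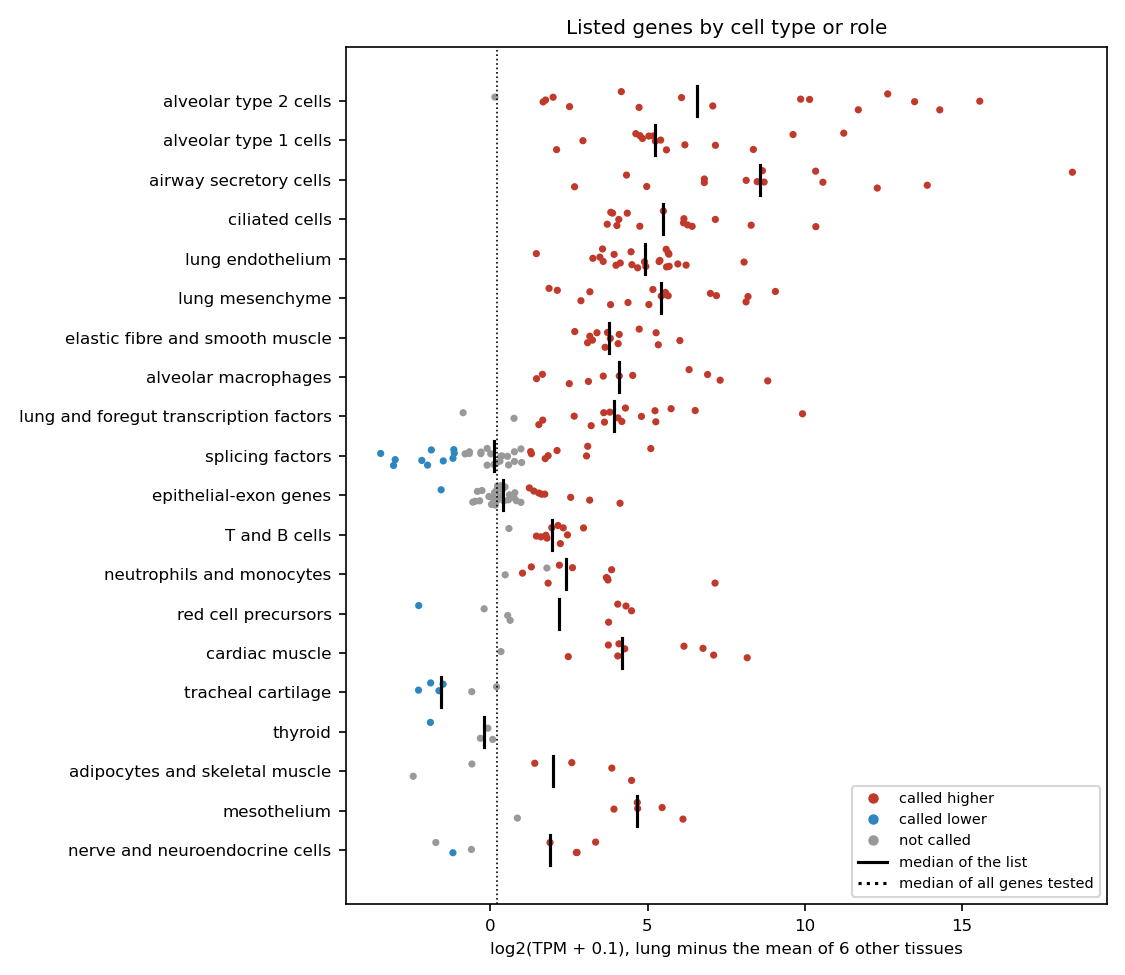
Log2 difference between lung and the mean of the other 6 tissues for each tested gene of the lists, on the log2(TPM + 0.1) scale, with 1 row per list, 1 point per gene and a bar at the median. The medians of the epithelial, vascular and mesenchymal lists lie between 3.77 and 8.57, while those of the splicing factors (0.11) and of the genes with epithelial exons (0.40) lie near the median of all genes, 0.20.

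Macrophage genes were called higher in 11 of 11 cases, with a median log2 difference of 4.101 and 5 set apart. Chi3l3, the chitinase-like protein Ym1, was measured at 198 and 252 TPM, with spleen next at 20.9 and 35.8 TPM. Ear2, an eosinophil-associated ribonuclease, was at 134 and 146 TPM and Ear1 at 9.37 and 8.65 TPM. Krt79 was at 24.6 and 32.2 TPM, with its nearest tissue at 0.221 and 0.210 TPM. Marco, a scavenger receptor, was called higher than the mean of the others although spleen was higher still, at 320.4 and 299 TPM against 22.9 and 35.7 TPM in lung. Fabp1 was at 43.4 and 45.2 TPM in lung and at 9897 and 9749.5 TPM in liver, where it is the main fatty acid carrier. Siglec5 had no chromosome in the reference and was not tested.

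Genes of lymphocytes were lower in lung than in spleen, and those of myeloid cells were divided. Of 11 genes of T and B cells, 10 were called higher than the mean of the others, with a median log2 difference of 1.95 and 0 set apart. The summed level of this list was 147 and 113 TPM in lung and 5895 and 3842 TPM in spleen. These calls depended on the scale and on the tissues: there were 5 with a pseudocount of 1, and 0 were higher and 2 lower when lung was compared with spleen and ESC alone. Of 12 genes of neutrophils and monocytes, 10 were called higher, with a median of 2.40, and Lyz2 and Cd14 were set apart. Lyz2, the lysozyme of myeloid cells, was at 4616 and 5988 TPM in lung and 1303 and 1359.7 TPM in spleen. The neutrophil protein S100a8 was at 42.96 and 62.3 TPM in lung and 355 and 627 TPM in spleen. Among 8 genes of red cells, the globins Hbb-bt, Hbb-bs, Hba-a1 and Hba-a2 were called higher and Klf1, the factor of red cell precursors, lower, at 0.204 and 0.223 TPM. Of this list 0 were set apart. It summed to 4851 and 3890 TPM in lung, 3624 and 4562 TPM in heart and 3502 and 7778 TPM in spleen. The other tissues reached at most 1035 TPM. The globin genes are near-identical copies, so the share of reads each received is uncertain.

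Cardiac muscle genes were also present in the lung libraries. Of 10 listed genes, 9 were called higher than the mean of the others, with a median log2 difference of 4.18 and 0 set apart. Their summed level was 1917 and 1464 TPM in lung and 65037 and 65457 TPM in heart. It ran from 1.16 to 87.8 TPM in the other 10 libraries. Myl7, the atrial light chain, was at 598 and 455 TPM in lung and 1826 and 1804 TPM in heart. Myh6, the alpha myosin heavy chain, was at 167 and 127 TPM and 12122 and 11969 TPM, and the atrial peptide Nppa at 37.9 and 10.5 TPM and 4696 and 4799 TPM. The ratio to heart therefore differed between genes, and each of the 10 genes was lower in the second lung library. The source of these transcripts was not tested.

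Mesothelium, the sheet that covers the organ, gave 5 of 6 genes called higher, with a median log2 difference of 4.68. Upk3b (116 and 99.4 TPM), Lrrn4, Upk1b and Krt19 were set apart. Msln was at 209 and 203 TPM in lung and at 141 and 90.004 TPM in ESC. Genes of tracheal cartilage and thyroid, which lie close to the lung, were low. The summed level of 6 tracheal cartilage genes was 1.22 and 1.43 TPM, with 0 higher and 4 lower, and Acan and Col2a1, which define cartilage, were at 0.00300 and 0.00200 TPM and 0.0260 and 0.0140 TPM. The 4 tested thyroid genes summed to 1.69 and 1.43 TPM, with 0 higher and 1 lower, and thyroglobulin, Tg, was at 0.468 and 0.410 TPM. Of 6 genes of adipocytes and skeletal muscle 4 were higher, among them Adipoq at 8.96 and 12.9 TPM, and 0 were set apart. The list summed to 188 and 231 TPM in lung, below 4233 and 4096 TPM in heart and 518 and 977 TPM in kidney. Spleen stood at 258 and 220 TPM and ESC at 250 and 551 TPM, while cortex and liver were at most at 10.8 TPM. Of 7 genes of nerve and neuroendocrine cells, 4 were higher and 1 lower, with Calca at 2.82 and 2.89 TPM. Over all genes tested, 26.7% were higher and 14.3% lower. The nerve list summed to 26.1 and 29.2 TPM in lung, 2106 and 2158 TPM in cortex and 171 and 110 TPM in ESC. Kidney was at 6.88 and 87.9 TPM, and heart, spleen and liver were at most at 12.3 TPM.

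**Figure D3:**
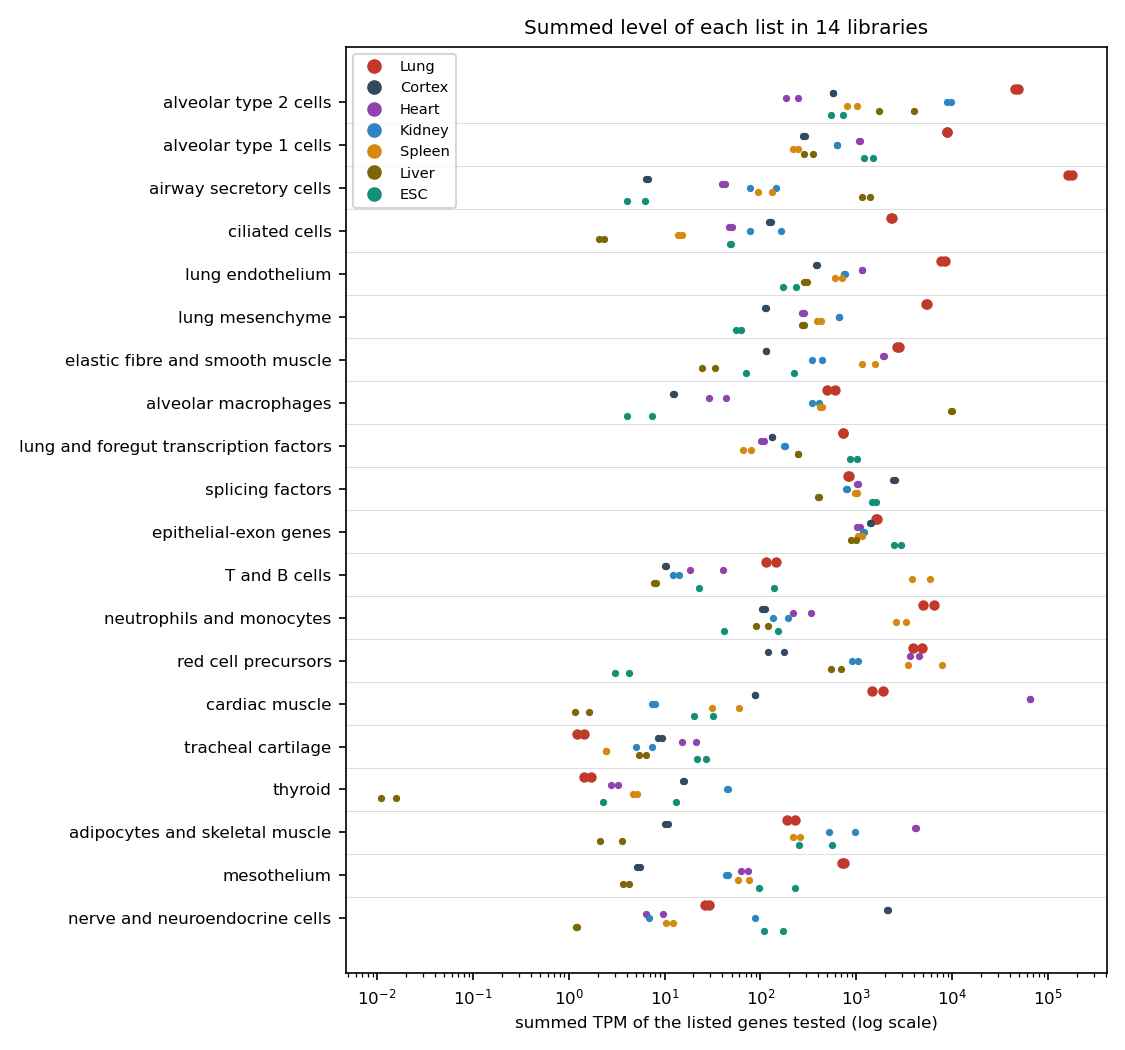
Summed TPM of the tested genes of each list in each of the 14 libraries, on a log axis, with 1 point per library. The lung libraries lie above all others for the alveolar, airway, ciliated, endothelial, mesenchymal and mesothelial lists, while spleen is highest for T and B cells and heart for cardiac muscle.

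Transcription factors of lung and foregut were called higher in 16 of 18 cases, with a median log2 difference of 3.93 and 5 set apart: Nkx2-1, Foxa1, Hoxa5, Irx2 and Meox2. Nkx2-1, the homeodomain factor of lung and thyroid epithelium, was measured at 196 and 185 TPM, and the next tissue, cortex, at 2.52 and 2.53 TPM. Its log2 difference was 9.93 ± 0.12 (adjusted p = 5.17e-11). Foxa2, a forkhead factor of gut-derived organs, was at 51.8 and 49.96 TPM in lung and 45.02 and 39.3 TPM in liver, and Sox2 at 19.5 and 18.6 TPM in lung and 409 and 414 TPM in ESC, where it serves pluripotency. Sox9 and Trp63 were not called. Sox9, a factor of the growing lung tips, was at 0.912 and 0.692 TPM in lung, and Trp63, a factor of basal cells, at 0.490 and 0.494 TPM.

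Few genes were set apart on the lower side, a call that required expression above lung in every other tissue. Of the 18, 7 had at least 10 TPM in every other tissue. Mpp6, a membrane scaffold of the MAGUK family, was measured at 9.15 and 9.60 TPM in lung and at 35.99 to 69.7 TPM elsewhere, with a log2 difference of -2.40 ± 0.09 (adjusted p = 1.27e-08). Tuba4a, an alpha tubulin, was at 49.7 and 47.7 TPM against 172 to 826 TPM (-2.69 ± 0.08). Bdh1, a mitochondrial enzyme of ketone bodies, was at 4.75 and 5.004 TPM against 16.5 to 218 TPM, and Ephx2, the soluble epoxide hydrolase, at 4.75 and 4.53 TPM against 15.98 to 425 TPM. In these 4 genes spleen was the nearest tissue, and the lung libraries lay below every other library. Bri3bp was at 4.84 and 4.81 TPM against 11.998 to 71.7 TPM. Lrpprc, which binds mitochondrial mRNA, and Ppif, the mitochondrial cyclophilin, lay closest to the limit of 1, with log2 differences of -1.036 and -1.001 from their nearest tissue. Lrpprc lost the call in 3 of 27 alternatives, among them that without the first lung library (-0.99). Ppif lost it in 5, among them those without the second lung (-0.94), the first cortex (-0.995) and the first liver library (-0.87). Among the 11 genes with lower levels, chosen after their values were seen, Sall1, a zinc finger factor, was at 0.00200 and 0.0140 TPM in lung against 0.141 to 88.05 TPM. After rescaling, 71 genes in place of 18 were set apart on the lower side.

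Splicing factors were called in both directions. Of 37 tested factors 8 were called higher and 10 lower, where 26.7% and 14.3% of all genes were, with a median log2 difference of 0.11 beside 0.20 over all genes, and 0 were set apart. Esrp1, an epithelial splicing regulator, was measured at 13.7 and 14.1 TPM in lung and 12.6 and 12.1 TPM in kidney, with a median of 0.0510 TPM over the 12 other libraries and a log2 difference of 5.10 ± 0.63 (adjusted p = 5.02e-05). Its paralog Esrp2 was at 28.05 and 30.4 TPM, below liver at 55.3 and 53.2 TPM. Both were called higher, as were Nova1, Nova2, Rbm24, Rbms3, Rbpms and Zfp36l2. Nova1 and Nova2, which are known from neurons, were at 3.65 and 3.27 TPM and 11.6 and 9.84 TPM in lung and at 42.4 and 41.04 TPM and 40.6 and 43.5 TPM in cortex. Of the 10 called lower, 7 (Celf5, Celf6, Srrm3, Srrm4, Elavl2, Elavl3 and Elavl4) are known from neurons. Srrm4, which promotes the inclusion of neuronal microexons, was at 0.0980 and 0.0650 TPM in lung and 25.8 and 25.6 TPM in cortex, and Elavl3 at 0.0290 and 0.0340 TPM and 153 and 159 TPM. Rbpms2 (11.8 and 10.4 TPM) and Rbm20 (2.78 and 2.19 TPM), both known from muscle, were lower too. A1cf was listed at 0 in both lung libraries. Mbnl1, Ptbp1 and Celf1 missed the limit on size, with log2 differences of 0.97 ± 0.15, 0.99 ± 0.06 and -0.81 ± 0.05.

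For exons, 20121 skipped-exon events on 18290 distinct exons of 7642 genes had 20 or more reads in both libraries of lung and of at least 3 other tissues. Inclusion was higher in lung than the mean of the other tissues in 364 (1.81%) and lower in 566 (2.81%), at an adjusted p under 0.05 and a difference in PSI of at least 0.1. The test was a quasi-binomial test on the PSI scale, with a dispersion moderated by limma's squeezeVar. Lung was set apart from every tissue with the reads in 6 events (0.0298%) with higher and 12 (0.0596%) with lower inclusion. These counts rest on the test: limma on the log2 ratio of inclusion to skipping called 2 and 3 of the same events and set 0 apart, with 1912 events at an unadjusted p under 0.05. Without the events near a PSI of 0 or 1 in every library, an alternative added after the data were seen, that test called 130 higher and 235 lower and set 7 and 3 apart.

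In its exons lung was most like kidney and spleen. Over the 7913 events measured in all 7 tissues, the share with a difference in PSI of 0.1 or more from lung was 8.54% for kidney, 8.78% for spleen, 11.4% for liver, 14.03% for ESC, 14.4% for heart and 19.6% for cortex. No test was made of the order of kidney and spleen, which lay close together. Among the 547 called exons measured in all 7 tissues, cortex was the tissue farthest from lung in 324 and the nearest in 36. Spleen was the nearest tissue in 158, liver in 112, ESC in 89, kidney in 81 and heart in 71. Without cortex the calls fell to 222 higher and 294 lower.

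The called exons held microexons and lengths that keep the reading frame at the following shares. Microexons, of 30 bp or less, made up 2.21% of all events, 6.59% (24) of those with higher and 20.8% (118) of those with lower inclusion in lung. The length was a multiple of 3 in 41.3% of all events, 66.8% of those higher and 76.5% of those lower. Most events tested had a PSI near 0 or 1 in the other tissues, whose mean lay between 0.1 and 0.9 in 18.9% of all events but in 99.5% of the higher and 96.997% of the lower ones. Among the 3808 events with such a mean, 6.36% were microexons and 54.2% had a length divisible by 3. No test of these shares was made. The share of microexons changed when cortex was left out. Of 63 called microexons measured in all 7 tissues, cortex was the farthest tissue in 49, and without cortex the shares of microexons were 8.56% of the higher (19) and 11.2% of the lower events (33), beside 2.22% of all. The share of lengths divisible by 3 then stayed at 70.7% and 74.1%. Most genes with a called exon showed no call in expression: of 302 genes with higher inclusion 91 were higher and 8 lower, and of 429 with lower inclusion 107 were higher and 17 lower. These were 30.1% and 2.65% of the first and 24.9% and 3.96% of the second, beside 22.3% and 4.87% of all 7640 genes with a tested event and an expression test.

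Vegfa, the growth factor that keeps the lung capillary bed, carried the most deeply read exon set apart in lung. The 72-bp exon at chr17:46022277-46022348 (mm10, minus strand, skipped between flanking exons that end at 46021122 and start at 46024065) had a PSI of 0.746 and 0.729 in the lung libraries, from 27214 and 25643 reads. The other tissues had 0.0955 and 0.101 in cortex, 0.536 and 0.546 in heart, 0.333 and 0.313 in kidney and 0.351 and 0.353 in spleen. Liver had 0.523 and 0.540 and ESC 0.488 and 0.395. No other library reached the lung values, and the difference from the mean of the others was 0.356 ± 0.00871 (SE, n = 2 libraries in each of 7 tissues, adjusted p = 9.99e-24, quasi-binomial test with limma moderation; the test and error are the same below). A second event, whose 54-bp exon at chr17:46022295-46022348 lies within the first and shares reads with it, was set apart as well, at 0.502 and 0.483. The gene itself was higher in lung, at 879 and 909.8 TPM, with heart next at 319.5 and 302 TPM.

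Another 4 genes had an exon set apart with higher inclusion. Tead1, a transcription factor of the Hippo pathway, included a 63-bp exon at chr7:112841888-112841950 at a PSI of 0.709 and 0.727 in lung and 0.0545 to 0.232 in the 8 libraries of cortex, heart, kidney and ESC, the tissues with the reads. The difference was 0.590 ± 0.102 (adjusted p = 1.03e-04), from 49 and 41 lung reads. Hnrnph1, which encodes an RNA-binding protein that itself regulates splicing, had a 127-bp exon at chr11:50377314-50377440 at 0.958 and 1 in lung and 0.106 to 0.512 elsewhere, with no value in liver. It rested on 47 and 20 reads in lung, and lost the call in 3 of 27 alternatives, among them that without the second cortex library, where the difference from cortex was 0.470. Sun1, a protein of the inner nuclear membrane, had a 111-bp exon at chr5:139231127-139231237 at 0.935 and 0.940, against 0.708 and 0.804 in ESC, 0.374 and 0.295 in cortex and 0.384 and 0.332 in heart; kidney, spleen and liver gave no value. Ptprd, a receptor tyrosine phosphatase, had a 42-bp exon at chr4:76039880-76039921 at 0.358 and 0.393 in lung and 0.0462 to 0.166 in the 8 libraries with the reads, and lost the call in 5 of 27 alternatives, among them those without either lung library (0.244 and 0.210 from cortex) or without the first heart library (0.227).

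Lower inclusion in lung than in every tissue with the reads was found in 10 genes. The largest difference was in Mbnl1, itself a splicing regulator. Its 1049-bp exon at chr3:60528756-60529804 had a PSI of 0.204 and 0.243 in lung and 0.557 to 0.969 elsewhere, with spleen next at 0.565 and 0.557 and no value in ESC (-0.541 ± 0.0266, adjusted p = 7.88e-16). Sec31a, an outer coat protein of the vesicles that leave the endoplasmic reticulum, had a 336-bp event at chr5:100373380-100373715 at 0.495 and 0.527 in lung and 0.783 to 0.992 elsewhere. The 12 other libraries all lay well above the lung pair. A 291-bp event within it had values of 0.480 and 0.494. Usp4, a deubiquitinating enzyme, kept its 141-bp exon at chr9:108365830-108365970 at 0.464 and 0.471 in lung, against 0.667 and 0.696 in liver and up to 0.992 in the other libraries (-0.391 ± 0.0253). Neither gene was called in expression, with log2 differences of 0.0006 for Sec31a and -0.03 for Usp4.

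Lcp1, the actin-bundling plastin of white blood cells, had a 119-bp exon at chr14:75176815-75176933 at 0.668 and 0.685 in lung and 0.937 to 1 in the other libraries, with no value in ESC. In spleen, where most reads of the gene were found (7002 and 6770), it was at 0.996 and 0.992. Without the first cortex library Lcp1 lost the call, with a difference of -0.261 from the remaining cortex library, which had 62 reads. Scrib, a scaffold of epithelial polarity, had a 63-bp exon at chr15:76061739-76061801 at 0.543 and 0.537 in lung and 0.721 to 0.997 elsewhere, with kidney next at 0.721 and 0.748. Mink1, a kinase, had a 24-bp microexon at chr11:70609408-70609431 at 0.154 and 0.165 in lung, 0.319 and 0.359 in kidney and 0.892 and 0.918 in cortex. Setd3, a histidine methyltransferase of actin, had a 149-bp exon at chr12:108160233-108160381 at 0.579 and 0.617, against 0.732 to 0.931. Gucd1 had overlapping events of 242 and 113 bp, the first at chr10:75509592-75509833 with 0.632 and 0.639 in lung and 0.833 to 1 elsewhere, again with no value in ESC.

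Exons of 2 more genes sat at the limit of the call. Immt, which shapes the inner mitochondrial membrane, had a 15-bp microexon at chr6:71866726-71866740 at 0.527 and 0.534 in lung and 0.645 and 0.669 in spleen, the nearest tissue, against 0.645 to 0.981 over all others, with a largest pairwise adjusted p of 0.0478. Mtss1, which bends membranes and binds actin, had a 195-bp exon at chr15:58947326-58947520 at 0.618 and 0.581 in lung and 0.789 and 0.654 in ESC (0.0479). Immt lost the call in 21 of 29 alternatives and Mtss1 in 23. Leaving out either lung or either spleen library ended it for Immt, with differences from spleen between -0.139 and -0.115. For Mtss1 the difference from ESC was -0.0545 without the first ESC clone. With the replicate number as a block both lost the call, at -0.127 from spleen for Immt and -0.122 from ESC for Mtss1. The difference from the mean of all the others stayed large, at -0.368 ± 0.0275 for Immt (adjusted p = 7.14e-12) and -0.222 ± 0.0295 for Mtss1 (adjusted p = 1.22e-06). The exons of Hnrnph1, Gucd1, Mbnl1, Lcp1 and Setd3 have lengths that are not a multiple of 3. All 15 exons that the rule named lost the set-apart call under limma on the log2 ratio of all events. With the events near a PSI of 0 or 1 left out, that test still did not set apart several of them. These were the exons of Ptprd, Mbnl1, Sec31a, Usp4, Gucd1, Scrib, Setd3, Immt and Mtss1.

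**Figure D4:**
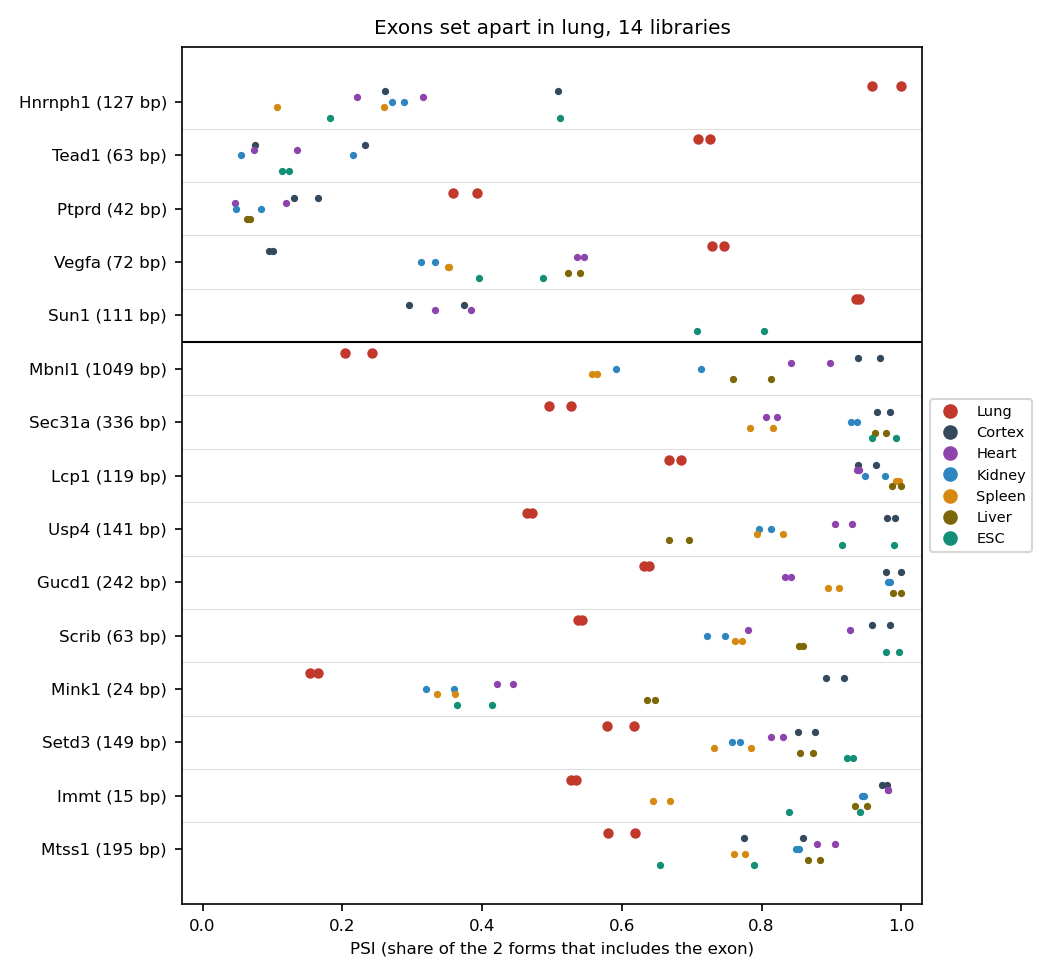
PSI of the 15 exons set apart in lung, 1 per gene, with 1 point per library and the tissues in separate colours; tissues without the reads have no point. The lung libraries lie above all others for Hnrnph1, Tead1, Ptprd, Vegfa and Sun1, and below all others for the remaining 10 genes.

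Genes with exons known to differ between epithelial and mesenchymal cells were examined because lung is rich in both kinds of cell. The list had tested events in 31 genes, 155 events in all, of which 13 were called with higher and 28 with lower inclusion, in 24 genes. Across all events tested, 1.81% and 2.81% were called in these directions. The genes were listed for their variable exons, and the 155 events hold every tested exon of these genes. In Ktn1, a kinesin-binding protein of the endoplasmic reticulum, an 84-bp exon at chr14:47726471-47726554 had a PSI of 0.836 and 0.825 in lung, 0.768 and 0.702 in spleen and 0.132 and 0.123 in cortex (0.444 ± 0.0181, adjusted p = 3.28e-18). In Arhgef11, which activates RhoA, a 30-bp exon was at 0.635 and 0.762 in lung, with 0.131 to 0.745 in the other libraries, so the groups overlapped.

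Some of the 28 exons with lower inclusion were near 0 in lung. Enah, which extends actin filaments, had a 12-bp exon at chr1:181931174-181931185 at 0.00623 and 0.0125 in lung and 0.495 and 0.526 in cortex, while heart, kidney and ESC were as low as lung, with 0.00440 and 0.00320 in kidney. Exoc7, a subunit of the exocyst, had a 93-bp exon at 0.0293 and 0.0352 in lung, 0.0261 and 0.0335 in kidney and 0.785 and 0.827 in cortex. Heart was high for this exon too, at 0.698 and 0.674, while spleen, liver and ESC were at most at 0.0995. Ctnnd1, the p120 catenin, had an 18-bp exon at chr2:84612532-84612549 at 0.128 and 0.149 in lung. This Ctnnd1 exon was at 0.0165 and 0.0280 in kidney and at 0.410 and 0.874 in the ESC clones, which lay far apart from each other. Macf1, a linker of actin and microtubules, had an 18-bp exon at chr4:123364057-123364074 at 0.295 and 0.292 in lung, 0.0609 and 0.0621 in spleen and 0.840 and 0.839 in heart (-0.395 ± 0.0122, adjusted p = 2.43e-21). Numb, an adaptor that restrains Notch, moved in both directions, with a 147-bp exon at 0.0760 and 0.0914 and a 33-bp exon at 0.461 and 0.492 in lung. The mean of the other tissues was 0.305 for the first and 0.276 for the second. Of the list, the exons of Mbnl1 and Scrib were set apart from every tissue with the reads. Fgfr2, the receptor of fibroblast growth factors on lung epithelium, was set apart in expression, at 55.1 and 58.6 TPM with cortex next at 27.1 and 22.95 TPM.

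**Figure D5:**
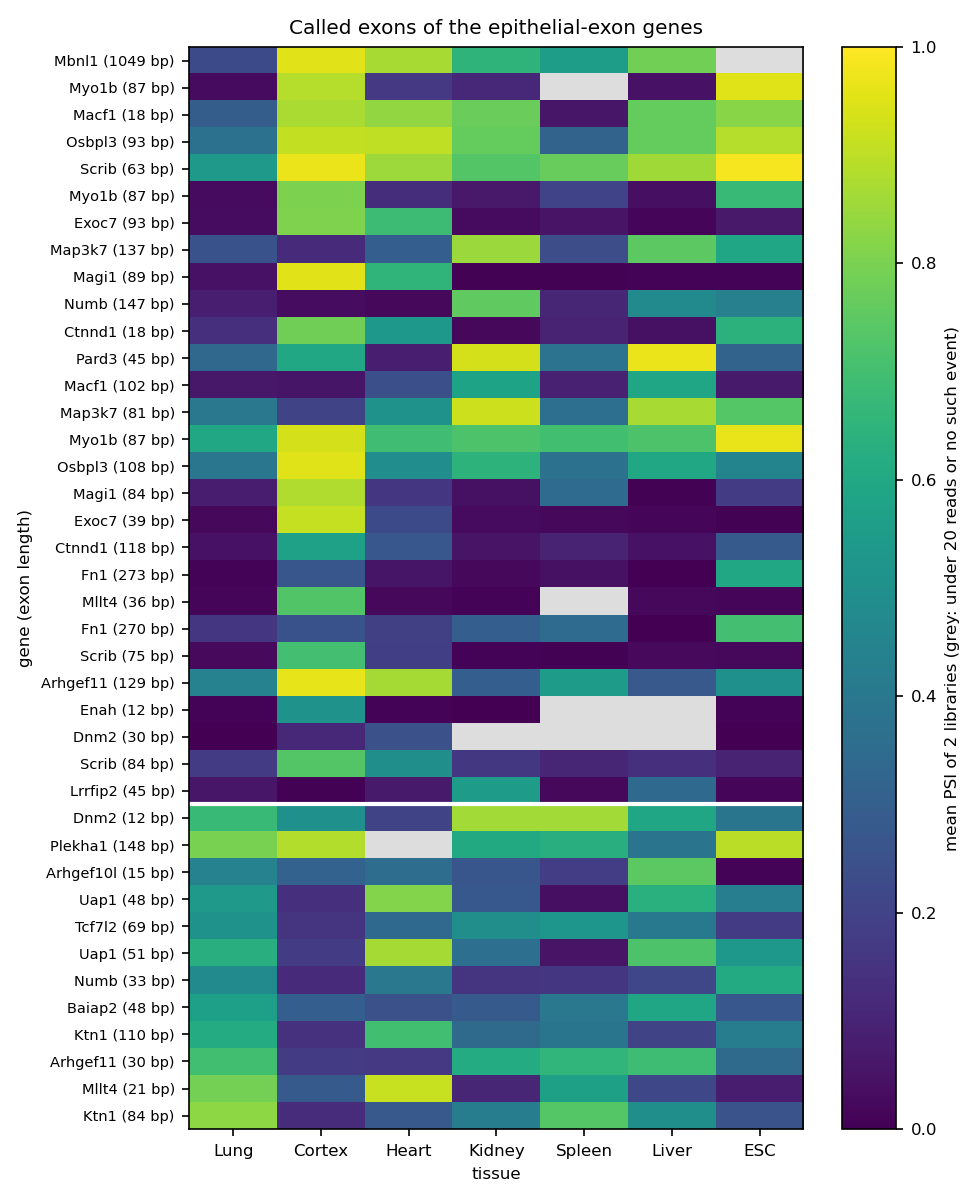
PSI of the called exons in genes of the epithelial and mesenchymal list, with 1 row per exon, 1 column per tissue and the colour giving the mean PSI of its 2 libraries from 0 to 1; a white line parts the exons with lower inclusion in lung, above, from those with higher inclusion; grey marks exons without the reads in a tissue. 1 called exon is not shown. Lung is high for the exon of Ktn1 (84 bp, 0.836 and 0.825) and low for those of Exoc7 and Enah, where kidney and ESC are also low.

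Exons of splicing factors themselves were also called. Of 60 events in 18 genes, 1 was called with higher and 4 with lower inclusion, where 1.81% and 2.81% of all events were. A 51-bp event of Rbfox2, at chr15:77231387-77231437, was at 1 and 0.986 in lung and 0.619 to 0.9 in 4 other tissues. Besides Mbnl1, its paralog Mbnl2 had 54-bp and 95-bp exons at 0.0983 and 0.103 and 0.377 and 0.404, with cortex at 0.412 and 0.435 and 0.564 and 0.473. Neither Mbnl2 exon was set apart. For the 54-bp exon heart was at 0.0516 and 0.0517, spleen at 0.0901 and 0.113 and ESC at 0.826 and 0.944. For the 95-bp exon heart was at 0.140 and 0.123, spleen at 0.316 and 0.432 and ESC at 0.800 and 0.944. Kidney and liver lay above lung for both. The 34-bp exon of Ptbp2, the neuronal polypyrimidine tract protein, at chr3:119724612-119724645, was at 0.326 and 0.183 in lung, 0.0953 and 0.0320 in spleen and 0.951 and 0.974 in cortex. Whether these exons lie in coding sequence or in UTRs was not analysed here, since no annotation of exons was used.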

How the data were processed

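RNA-seq libraries of 7 tissues, 2 each, were used. The authors aligned reads with HISAT2 2.0.1 to the C57BL/6J (mm10) and SPRET/EiJ genomes, counted junction reads with rMATS at default settings on Ensembl 74, and derived expression from featureCounts output. The deposited junction counts are not normalized and hold both replicates in 1 list, read here by position. The deposited effective length of each form is a length in bases, written by rMATS. Gene levels were deposited as TPM (transcripts scaled by length and library), not as counts. Columns of the authors' own comparisons (p-values, FDR, inclusion differences) and allelic reads were not used, and neither were 4 TPM columns of fibroblasts.

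PSI was (I/LI) / (I/LI + S/LS), with I and S the inclusion and skipping reads and LI and LS their effective lengths. Exons with at least 20 reads in both libraries of lung and of 3 or more other tissues were tested on the PSI scale by a quasi-binomial Wald test, with 0.5 read added to each form, a dispersion of at least 1 and limma 3.58.1 squeezeVar moderation that follows depth. Genes were tested with limma on log2(TPM + 0.1), with a filter of 1 TPM in both libraries of a tissue. Lung was contrasted with the equally weighted mean of the other tissues, and with each one for genes and exons set apart. Benjamini-Hochberg adjusted p-values run over all genes or events tested, which were autosomal. The chromosome of an event was the one deposited with its junction counts. That of a gene came from its events or, where it had none, from the RefSeq table. By symbol, 32080 of 38924 genes and 99557 of 100197 events matched the RefSeq table. R 4.3.3 and Python 3.11.15 were used.

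The text names the 15 genes set apart higher with the largest difference from the nearest tissue and at least 10 TPM in lung, those set apart lower with at least 10 TPM in every other tissue (up to 10), up to 12 exons set apart in each direction, 1 per gene, and list members. The comparison, the members and the gene lists were chosen with earlier results of these data known. Qk, on 2 rows of the expression table, was left out of its list. Muc5ac, Mcidas, Figf, Siglec5, Mbnl3, Alas2, Col9a1, Duox2, Lep, Myh4 and Syp were among the genes listed and not tested, being too low, on the X chromosome or without a chromosome. Depth is known for junction reads and not for TPM. PCR duplicates were not marked by molecular identifiers, so read counts cover counting error only.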

Additional observations from a re-analysis of the deposited data

How the results depend on the processing

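The balance of higher and lower called exons turned over only in the comparison with spleen and ESC alone. That of exons set apart turned over there too, and under limma on the log2 ratio without events near a PSI of 0 or 1. The counts that moved most follow, and their causes were not tested beyond the construction of each alternative. With a pseudocount of 1, 1858 genes were lower and 6 set apart lower; rescaling gave 71 set apart lower, leaving out heart 50, spleen 88 and liver 90, and without spleen 1799 were set apart higher. Against spleen and ESC alone, 4610 genes were lower, 2588 set apart higher and 1750 set apart lower; fewer tissues have to differ there. Leaving out 1 library in turn gave 4960 to 5351 genes higher, 2601 to 2871 lower, 869 to 1006 set apart higher and 13 to 20 set apart lower. It gave 294 to 440 exons with higher and 502 to 624 with lower inclusion, 5 to 8 set apart higher and 9 to 17 lower. For exons, limma on the log2 ratio called 2 and 3 and set 0 and 0 apart; without events near a PSI of 0 or 1 it called 130 and 235 and set 7 apart higher and 3 lower, where the reported test set 6 and 12 apart. Without cortex 222 and 294 exons were called. Exons set apart higher were 17 without heart, 16 without spleen and 16 without ESC, and 26 were set apart lower without spleen. Against spleen and ESC alone, 205 and 179 were called and 56 and 39 set apart, so that more were higher than lower, and with all 6 tissues required 213 and 345 were called and 2 and 7 set apart. Of 594 results of named genes over the alternatives 586 kept the call, and of 417 of named exons 347; none changed sign.

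The organs came from the same 2 animals, but the replicate numbers were not shown to mark them and ESC came from clones: the correlation of same-numbered deviations ran from -0.0326 to 0.196 over 21 pairs of tissues for genes, with 5 over 0.1, of which lung had 4 (heart 0.164, kidney 0.151, spleen 0.128 and liver 0.103), and from -0.0803 to 0.0668 for exons, with 0 over 0.1. With the replicate number as a block 5263 genes were higher and 2819 lower, 949 and 19 were set apart, 360 and 563 exons were called, and 6 and 10 were set apart, the exons of Immt and Mtss1 losing that call. Depth limits events with few junction reads, such as that of Hnrnph1 with 47 and 20 lung reads.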

Other observations

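Several exons with large differences from the mean of the other tissues did not pass the limits against every single tissue. For some a tissue lay close to lung, and for others a tissue lay beyond it. The exons below were chosen after their values were seen, from the 40 largest among called exons measured in all 7 tissues, and none was set apart. A 39-bp exon of Spag9, a scaffold of kinase signalling, at chr11:94113263-94113301 (mm10) had a PSI of 0.845 and 0.859 in lung and 0.875 and 0.871 in heart, against 0.227 and 0.244 in kidney and 0.146 and 0.130 in liver. A 36-bp exon of Bnip2 at chr9:70004306-70004341 was at 0.797 and 0.783 in lung and 0.934 and 0.893 in heart, which was higher than lung, with 0.202 and 0.233 in liver. Ptk2b, the kinase Pyk2, had a 126-bp exon at chr14:66163025-66163150 at 0.416 and 0.362 in lung and 0.0539 and 0.0511 in spleen, which was lower than lung, beside 0.978 and 0.972 in kidney. Depdc5, a subunit of a complex that restrains mTORC1, had a 66-bp exon at chr5:32959281-32959346 at 0.0330 and 0.0436 in lung, 0.0145 and 0.0279 in spleen, 0.0655 and 0.0495 in kidney and 0.0636 and 0.0667 in liver, and at 0.864 and 0.867 in cortex.

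Receptors were among these exons. Cd97, an adhesion receptor of leukocytes and epithelium, had a 135-bp exon at chr8:83731903-83732037 at 0.934 and 0.922 in lung, from 12181 and 10929 reads, and at 0.186 to 0.803 elsewhere (difference 0.351 ± 0.0229, adjusted p = 3.05e-13, quasi-binomial test with limma moderation). The 267-bp exon of the fibroblast growth factor receptor Fgfr1 at chr8:25555508-25555774 was at 0.295 and 0.298 in lung, 0.106 and 0.556 in liver and 0.953 and 0.959 in cortex. Ano1, a chloride channel of airway epithelium and smooth muscle, had a 66-bp exon at chr7:144648575-144648640 at 0.649 and 0.687 in lung and 0.886 and 0.534 in liver, with 0.260 and 0.298 in kidney. The liver values rested on few reads, 31 and 22 for Ano1 and 26 and 21 for Fgfr1, and the liver libraries lay far apart. Cd97 missed the set-apart call although its lung values lay above those of every other library.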
